A study of Mus musculus with 12 samples.

Results

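Scar-associated macrophages are the lipid-handling macrophages that gather in injured and fibrotic lung and liver, and 8 genes that mark them were followed in RNA-seq libraries of Pdgfra+ sorted lung cells of the mouse. The genes were *Spp1*, *Trem2*, *Gpnmb*, *Fabp5*, *Cd9*, *Cd63*, *Lgals3* and *Apoe*, taken by symbol from the 40760 genes of the deposited table. *Spp1* was selected on the size of its rise with bleomycin in these libraries, so its contrasts with bleomycin libraries are given as a description without a test. All 8 genes were kept by the filter on low counts, which left 17418 genes to be tested.

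*Spp1* encodes osteopontin, a secreted protein that binds integrins and CD44 and that both macrophages and activated fibroblasts can make. Trem2 is a lipid-sensing receptor of myeloid cells that signals through the adaptor Tyrobp, and it sustains a program of lipid uptake, lysosomal digestion and cholesterol export to which apolipoprotein E, the lysosomal glycoprotein Gpnmb and the fatty acid carrier Fabp5 belong. Galectin-3, the product of *Lgals3*, and the tetraspanins CD9 and CD63, which organize cell surface and endosomal membranes, are also found in many other cells, fibroblasts included.

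The study asked how loss of *Pear1*, a cell surface receptor found on fibroblasts, changes the response of lung fibroblasts to bleomycin, an agent that injures the lung and leaves it scarred. The 12 libraries form 4 groups of 3: wild-type mice given vehicle (WT vehicle), *Pear1*-/- mice given vehicle (*Pear1*-/- vehicle), wild-type mice given bleomycin (WT bleo) and *Pear1*-/- mice given bleomycin (*Pear1*-/- bleo). By the study's methods the mice were males aged 8 to 12 weeks on a C57BL/6 background unless stated otherwise, and the bleomycin was aerosolized into the trachea, and the labels give neither dose nor day. The *Pear1*-/- allele is of the knockout-first type, with a trapping cassette in an intron in every cell of the mouse, and is not restricted to the sorted cells. The number of mice behind a library is not given in the sources used here, nor whether replicates came from separate mice, so that p-values measure the spread between these libraries, which may be technical.

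The libraries held between 6702948 and 10447101 counted reads. *Pear1* itself had 576, 545 and 519 normalized counts in WT vehicle and 511, 501 and 547 in *Pear1*-/- vehicle, so that the counts do not separate these genotypes. With a trapping allele, counts over the whole gene need not fall, so this is no check of the labels. In the bleo groups it was higher in the labelled *Pear1*-/- libraries, with 355, 372 and 344 normalized counts against 256, 239 and 266 in WT bleo (log2 fold change 0.48, adjusted p = 0.00012 in edgeR's quasi-likelihood test). Genotype below is always the deposited label, and these libraries are written as labelled *Pear1*-/-. WT vehicle replicate 2 stood apart from its group. The chi-square of its counts, divided by the degrees of freedom so that counting noise alone gives 1, was 25.2 and 26.0 against replicates 1 and 3, which differed from each other by 1.68. Within the other groups the same measure lay between 1.37 and 5.46. For WT vehicle replicate 2 it was 1.81, 2.29 and 2.92 against the 3 labelled *Pear1*-/- vehicle libraries, which were thus nearer to it than its own group. Its 5 neutrophil markers summed to 14912 normalized counts, against 4319 and 4284 in replicates 1 and 3 and between 13964 and 17675 in the labelled *Pear1*-/- vehicle libraries. The labels were kept, and each WT vehicle mean and each contrast with WT vehicle holds this library unless stated.

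Transcripts of macrophage markers were counted in every library, although the cells had been sorted for Pdgfra. None of 14 macrophage markers was at or under 3 counts in any library, and their summed normalized counts rose from between 17384 and 19684 in WT vehicle and between 19099 and 20523.5 in the labelled *Pear1*-/- vehicle libraries to between 168459 and 169247 in WT bleo, against between 63888.5 and 65939.6 in those labelled *Pear1*-/- bleo. *Pdgfra* itself was lower in WT bleo than in WT vehicle by a log2 fold change of -1.74 and higher in the labelled *Pear1*-/- bleo libraries than in WT bleo by 0.80, while *Ptprc*, the gene of the pan-leukocyte antigen CD45, was lower there by -1.19. In bulk samples, fewer cells of a type and less RNA per cell cannot be told apart.

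Of the genes whose sequences in front carry letters looked for here, 3 are shown, *Spp1* and *Gpnmb*, which share a motif, and *Trem2*. A link of these letters to the genes' responses was not tested. RefSeq promoter windows on GRCm38.p6 were found for 7 of the 8 genes, *Fabp5* being the exception, and each sequence below is the 250 bases before the transcript start, read 5′ to 3′ on the strand of the gene. All 3 lie on the plus strand, at chr5:104434861-104435110 for *Spp1*, chr17:48346151-48346400 for *Trem2* and chr6:49036268-49036517 for *Gpnmb*. Capitals mark a match to a motif. The motifs were chosen after the sequences had been read.
Spp1: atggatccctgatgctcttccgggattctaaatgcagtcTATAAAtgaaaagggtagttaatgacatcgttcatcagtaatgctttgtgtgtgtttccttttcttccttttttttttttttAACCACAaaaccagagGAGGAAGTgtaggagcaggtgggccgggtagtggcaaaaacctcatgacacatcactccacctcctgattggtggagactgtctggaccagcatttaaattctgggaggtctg
Trem2: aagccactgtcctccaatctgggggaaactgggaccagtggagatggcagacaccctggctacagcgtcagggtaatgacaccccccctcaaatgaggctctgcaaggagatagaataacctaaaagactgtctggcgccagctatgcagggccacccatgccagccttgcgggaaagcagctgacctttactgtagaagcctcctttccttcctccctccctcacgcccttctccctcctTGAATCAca
Gpnmb: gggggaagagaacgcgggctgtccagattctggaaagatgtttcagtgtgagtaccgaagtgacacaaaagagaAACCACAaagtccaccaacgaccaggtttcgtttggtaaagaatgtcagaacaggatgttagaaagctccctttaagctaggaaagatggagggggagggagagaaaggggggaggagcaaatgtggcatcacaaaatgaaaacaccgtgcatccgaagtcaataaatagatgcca

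The motifs searched on both strands were AACCACA, the core bound by RUNX factors, GAGGAAGT, bound by the myeloid factor PU.1, TGANTCA, bound by AP-1, the E-box CACGTG, bound by the MiT/TFE factors of lysosomal genes, the GC box GGGCGG and the TATA motif TATAAA. No pair of these matches overlapped in the sequences shown. The RUNX motif stood in *Spp1* at positions -129 to -123 from the start and in *Gpnmb* at -176 to -170, and 4.40% of 32851 promoter windows of the same length hold it. In *Spp1* the PU.1 motif followed at -113 to -106 (2.44% of windows) and a TATA motif lay at -211 to -206, further from the start than such elements usually lie (12.4% of windows). *Trem2* held an AP-1 motif at -9 to -3 (6.75% of windows). The GC box was found in *Cd9* and *Lgals3* (32.7% of windows), and the letters CACGTG, present in 6.02% of windows, are in none of the 7 windows. A match is a run of letters and not a measured binding site.

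Osteopontin transcripts rose in both genotypes and reached, per exon length, the highest level of the 8 genes in the labelled *Pear1*-/- bleo libraries. *Spp1* (ENSMUSG00000029304; chr5:104435118-104441050, plus strand, GRCm38) had 937, 761 and 919 normalized counts in WT vehicle, that is deposited counts divided by the library's size factor. In the labelled *Pear1*-/- vehicle libraries it had 812, 852 and 736. WT bleo libraries held 27805, 28190 and 27335, and those labelled *Pear1*-/- bleo 86045, 88309 and 89373. The vehicle groups overlapped, both bleo groups lay far above them, and the bleo groups did not overlap. The log2 fold change over vehicle was 5.0 in WT (standard error, SE, 0.085) and 6.78 in the labelled *Pear1*-/- libraries (SE 0.092), a difference of 1.78. Between the labelled *Pear1*-/- bleo libraries and WT bleo it was 1.65 (SE 0.073, 3.14-fold). These are the libraries in which *Spp1* was selected, so this value too is given without a test. A gene model of the same strand, *Gm42793*, overlaps *Spp1* and held 1014 counts over all 12 libraries.

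*Trem2* (ENSMUSG00000023992; chr17:48346401-48354147, plus strand) moved the other way between the bleo groups. It had 72.8, 34.5 and 97.3 normalized counts in WT vehicle and 32.2, 29.7 and 33.8 in the labelled *Pear1*-/- vehicle libraries. With bleomycin it stood at 1311, 1375 and 1353 in WT and at 567, 599 and 626 in the labelled *Pear1*-/- libraries. Among vehicle libraries WT replicate 2 lay just above the highest one labelled *Pear1*-/-, and the bleo groups were well apart. *Trem2* rose over vehicle in both genotypes, by 4.33 in WT on the log2 scale (SE 0.19, adjusted p = 3.39e-11) and 4.23 in the labelled *Pear1*-/- libraries (SE 0.21, adjusted p = 2.23e-10), and the difference of -0.10 did not pass the test (adjusted p = 0.834). Between the bleo groups *Trem2* was lower in the labelled *Pear1*-/- libraries by -1.18 (SE 0.15, adjusted p = 1.12e-05). A lower level was also found between the vehicle groups, by -1.08 (SE 0.27, adjusted p = 0.0426), but 13 of 18 other settings lost this call, and without WT vehicle replicate 2 it was -1.35 (adjusted p = 4.8e-08).

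*Apoe* (ENSMUSG00000002985; chr7:19696109-19699188, minus strand), which encodes the lipid carrier apolipoprotein E, had the highest level per exon length of the 8 genes in WT bleo. WT vehicle libraries had 15676, 20143 and 14814 normalized counts and those labelled *Pear1*-/- vehicle 19230, 19153 and 21996. In WT bleo there were 76988, 76837 and 78453, and in the labelled *Pear1*-/- bleo libraries 37098, 38283 and 38142. The vehicle groups overlapped through WT replicate 2, and the bleo groups were separate. The log2 fold change of *Apoe* over vehicle was 2.21 in WT (SE 0.091, adjusted p = 1.53e-11) and 0.91 in the labelled *Pear1*-/- libraries (SE 0.088, adjusted p = 3.79e-07), and between the bleo groups it was lower in the latter by -1.05 (SE 0.088, adjusted p = 1.69e-07). Its rise was smaller in the labelled *Pear1*-/- libraries by -1.29 (SE 0.12, adjusted p = 1.7e-06), the largest difference among the 7 members tested for it.

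*Lgals3* (ENSMUSG00000050335; chr14:47367751-47386160, plus strand), the gene of the carbohydrate-binding galectin-3, had 1678, 1446 and 1633 normalized counts in WT vehicle and 1445, 1449 and 1664 in the labelled *Pear1*-/- vehicle libraries. In bleo it had 8973, 8808 and 9276 in WT and 5364, 5539 and 5570 in the labelled *Pear1*-/- libraries. Vehicle groups overlapped and bleo groups did not. *Lgals3* rose by 2.52 in WT (SE 0.079, adjusted p = 7.12e-13) and by 1.86 in the labelled *Pear1*-/- libraries (SE 0.077, adjusted p = 2.64e-11) on the log2 scale. It was lower in the labelled *Pear1*-/- bleo libraries than in WT bleo by -0.73 (SE 0.074, adjusted p = 1.28e-06), and its rise was smaller there by -0.66 (SE 0.11, adjusted p = 0.0002).

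*Fabp5* (ENSMUSG00000027533; chr3:10012548-10016607, plus strand), a carrier of fatty acids in the cytoplasm, had 149, 165 and 152 normalized counts in WT vehicle, and 164, 127 and 163 in the labelled *Pear1*-/- vehicle libraries. It had 861, 955 and 880 in WT bleo and 671, 691 and 684 in the labelled *Pear1*-/- bleo libraries, again without overlap between the bleo groups, while the vehicle groups overlapped. The log2 fold change was 2.54 in WT (SE 0.094, adjusted p = 4.51e-12), 2.18 in the labelled *Pear1*-/- libraries (SE 0.093, adjusted p = 3.55e-11) and -0.41 between the bleo groups (SE 0.082, adjusted p = 0.000762). Its rise was smaller in the labelled *Pear1*-/- libraries by -0.36 (adjusted p = 0.0447), a call that 14 of 17 other settings lost.

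*Gpnmb* (ENSMUSG00000029816; chr6:49036546-49070929, plus strand), a glycoprotein of lysosomes and phagosomes, had 639, 904 and 637 normalized counts in WT vehicle, where replicate 2 was high, and 829, 895 and 1059 in the labelled *Pear1*-/- vehicle libraries. WT bleo libraries had 2286, 2112 and 2146 and those labelled *Pear1*-/- bleo 1561, 1617 and 1517, with every bleo library above every vehicle library. *Gpnmb* rose by 1.60 in WT (SE 0.12, adjusted p = 1.91e-08) and by 0.76 in the labelled *Pear1*-/- libraries (SE 0.12, adjusted p = 5.65e-05) on the log2 scale. Between the bleo groups it was lower in the labelled *Pear1*-/- libraries by -0.49 (SE 0.12, adjusted p = 0.00294), and the rises differed by -0.84 (SE 0.17, adjusted p = 0.00127).

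The tetraspanins *Cd9* and *Cd63* had the smallest rises in WT and parted between the genotypes as labelled. *Cd9* (ENSMUSG00000030342; chr6:125460266-125494791, minus strand) had 1994, 2498 and 2097 normalized counts in WT vehicle and 2666, 2808 and 2255 in the labelled *Pear1*-/- vehicle libraries. It stood at 3879, 3879 and 3823 in WT bleo and at 2722, 2705 and 2909 in the labelled *Pear1*-/- bleo libraries, which overlapped their vehicle group. Its log2 fold change over vehicle was 0.83 in WT (SE 0.091, adjusted p = 1.29e-06) and 0.11 in the labelled *Pear1*-/- libraries (SE 0.091, adjusted p = 0.291), and the difference was -0.71 (SE 0.13, adjusted p = 0.00054). Between the bleo groups *Cd9* was lower in the labelled *Pear1*-/- libraries by -0.49 (SE 0.091, adjusted p = 0.000416). The antisense gene models *Gm28809* and *Gm26728* overlap *Cd9* and held 337 and 155 counts over all libraries.

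*Cd63* (ENSMUSG00000025351; chr10:128900989-128912822, plus strand), a tetraspanin of late endosomes and exosomes, had 3164, 3818 and 3007 normalized counts in WT vehicle and 3739, 3782 and 3963 in the labelled *Pear1*-/- vehicle libraries. It had 5727, 5750 and 5931 in WT bleo and 6893, 6802 and 6842 in the labelled *Pear1*-/- bleo libraries. The log2 fold change of *Cd63* over vehicle was 0.81 in WT (SE 0.077, adjusted p = 2.33e-07) and 0.84 in the labelled *Pear1*-/- libraries (SE 0.077, adjusted p = 2.15e-07), and the difference of 0.03 (SE 0.11) did not pass the test (adjusted p = 0.861), but without WT vehicle replicate 2 it was -0.163 (adjusted p = 0.0462). It was higher in the labelled *Pear1*-/- bleo libraries than in WT bleo by 0.23 (SE 0.076, adjusted p = 0.0245), a call lost in 11 of 18 other settings although the libraries did not overlap.

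**Figure D1:**
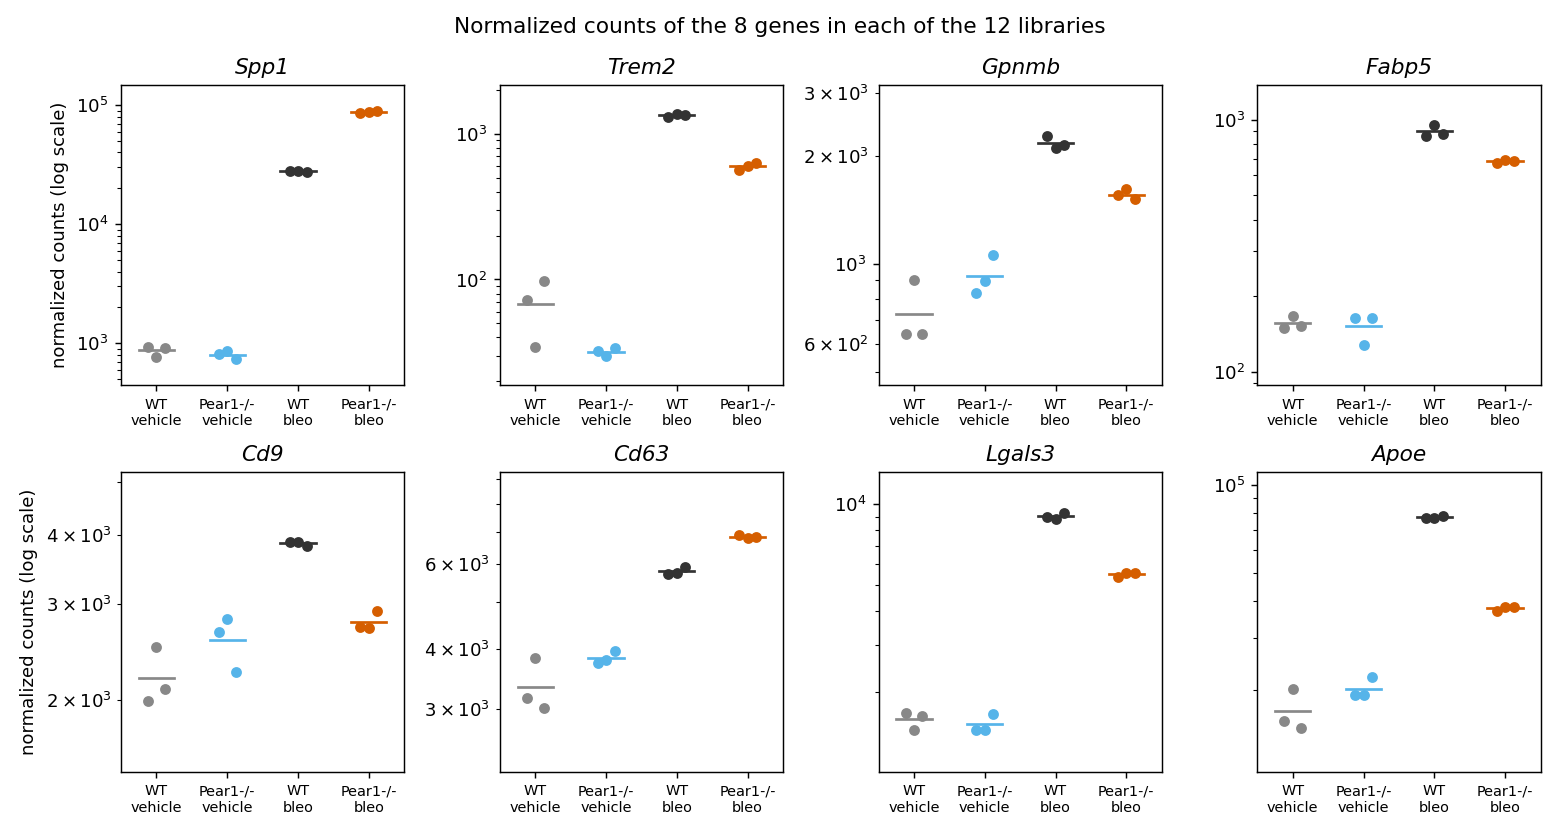
Normalized counts of the 8 genes in each of the 12 libraries, one panel per gene, on a log10 axis and with the 4 groups along the horizontal axis; points are libraries and lines are group means. *Spp1* and *Cd63* are highest in the labelled *Pear1*-/- bleo libraries, and the other 6 genes are highest in WT bleo.

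Most of the genes rose with bleomycin in both genotypes. In WT, all 7 genes other than *Spp1* rose, against 31.4% of all genes tested that were higher, and 5 of the 7 rose more than 2-fold, against 10.5% of genes. In the labelled *Pear1*-/- libraries, 6 of the 7 rose, all but *Cd9*, against 28.9% of genes, and 3 rose more than 2-fold, against 8.38%. The median log2 fold change of the 7 was 2.21 in WT and 0.915 in the labelled *Pear1*-/- libraries, where the medians of all genes were -0.071 and -0.048. Because each of these comparisons has its own vehicle group, the rises could also be compared directly. For 5 of the 7 genes, *Gpnmb*, *Fabp5*, *Cd9*, *Lgals3* and *Apoe*, the rise was smaller in the labelled *Pear1*-/- libraries, against 19.1% of all genes with a difference in that direction, and the median difference of the 7 was -0.662. Only that of *Apoe* exceeded 2-fold, against 7.06% of genes.

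Between the bleo groups, 6 of the 7 genes other than *Spp1* were lower in the labelled *Pear1*-/- libraries, against 23.9% of all genes, and 2 of these, *Trem2* and *Apoe*, by more than 2-fold, against 8.76%. The remaining gene, *Cd63*, was higher, against 22.1% of genes. The median log2 fold change of the 7 was -0.492, beside -0.013 over all genes tested. All comparisons with WT bleo share its 3 libraries, so that a larger rise in WT and a lower level in the labelled *Pear1*-/- bleo libraries are not separate observations.

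**Figure D2:**
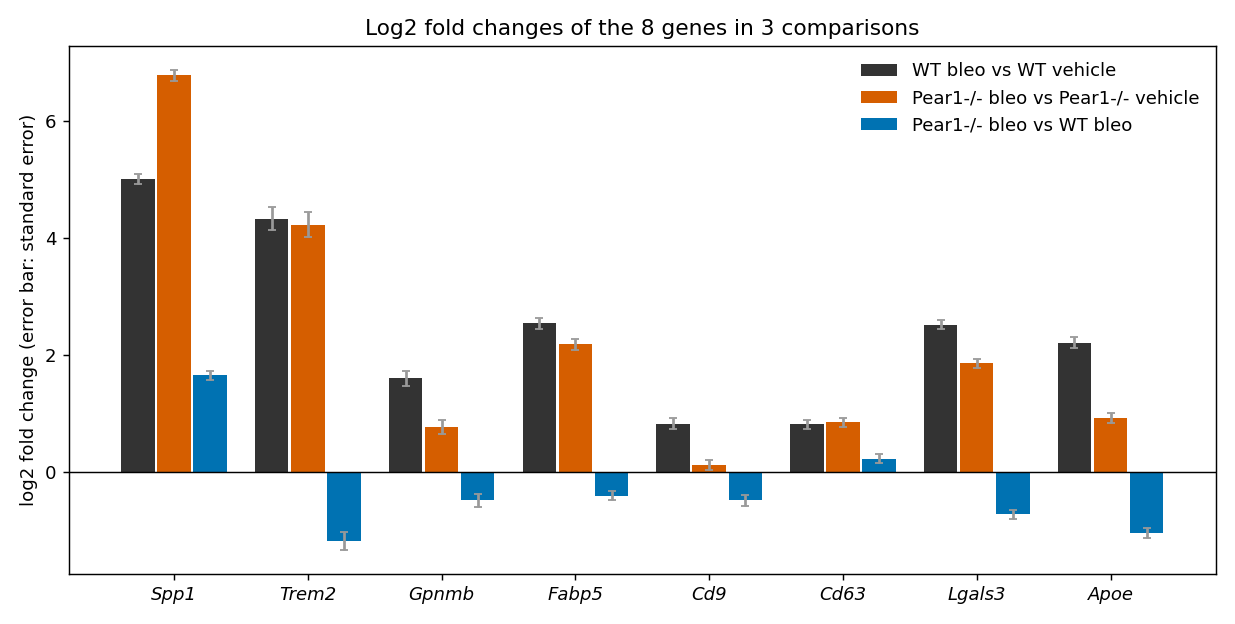
Log2 fold changes of the 8 genes (vertical axis) in 3 comparisons, as bars with standard errors from edgeR. *Spp1* reaches 5.0 and 6.78 over vehicle and is the only gene with a bar above 1 between the bleo groups, at 1.65, while *Trem2* and *Apoe* fall below -1 there.

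Between the vehicle groups, *Trem2*, lower by more than 2-fold in the labelled *Pear1*-/- libraries, was the only one of the 8 genes past the test with all libraries, against 3.65% of all genes that were lower. No gene was higher in edgeR's test, against 0.855% of all genes, nor in DESeq2's Wald test or limma, although 4 had an unadjusted p under 0.05. Leaving out the filter on low counts gave 4 higher genes, against 5.66% of all genes in that fit, and so did leaving out WT vehicle replicate 2, against 25.5%. Without this library, *Gpnmb* was higher in the labelled *Pear1*-/- libraries by a log2 fold change of 0.61 (adjusted p = 3.03e-08), *Cd9* by 0.40 (adjusted p = 1.08e-06), *Cd63* by 0.38 (adjusted p = 8.33e-08) and *Apoe* by 0.47 (adjusted p = 1.14e-10). *Spp1* was then lower by -0.15 (adjusted p = 0.0231). Summed markers of other cells differed between the same libraries, with no test run on the sums. Beside the neutrophil sums given above, WT vehicle replicates 1 and 3 had 3490.2 and 3414 summed normalized counts of lymphocyte markers, against between 5972 and 6446 in the labelled *Pear1*-/- vehicle libraries. For alveolar macrophage markers they had 1652 and 1669, against between 2906 and 3023, and for epithelial markers 39595.5 and 37873, against between 52307 and 61467. Over all WT vehicle libraries, the 7 alveolar macrophage markers other than *Chil3* summed to between 540 and 694, against between 678 and 739. *Chil3* alone held between 1102 and 2264, against between 2227 and 2284. With all libraries, none of the 8 alveolar macrophage markers passed the test. The part of these other cells in the members' differences was not tested.

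Levels of different genes can be set side by side only per length of their exons. Per kilobase of merged exon, *Apoe* led in WT vehicle with 7894 normalized counts, followed by *Cd9* with 1075, *Cd63* with 904 and *Lgals3* with 853, while *Trem2* was last with 13.8. In WT bleo the order began with *Apoe* at 36214 and *Spp1* at 16855, and *Lgals3* followed at 4854. In the labelled *Pear1*-/- bleo libraries the first 2 had changed places, with *Spp1* at 53343 and *Apoe* at 17699 normalized counts per kilobase. *Trem2* was last of the 8 in 3 of the 4 groups, at 121 in the labelled *Pear1*-/- bleo libraries. In WT bleo it stood at 272, above *Fabp5* at 252.

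The members' partners in the same pathways were taken from lists and read from the same test. Of 10 genes of Trem2 signalling, 9 were lower in the labelled *Pear1*-/- bleo libraries than in WT bleo, with a median log2 fold change of -0.825, and all 10 had been higher in WT bleo than in WT vehicle. *Tyrobp*, the adaptor through which Trem2 signals, was lower by -1.11 (adjusted p = 9.4e-06), the phosphatase gene *Inpp5d* by -1.02, the kinase gene *Syk* by -0.95 and the exchange factor gene *Vav1* by -0.86. The exception was *Adam10*, one of the proteases that shed Trem2 from the cell, at -0.19 (adjusted p = 0.11).

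Of 15 genes of the lipid-associated macrophage program, 11 were lower and 2 higher in the labelled *Pear1*-/- bleo libraries, with a median of -0.73. *Mmp12*, the macrophage elastase, was lower by -2.12 (adjusted p = 7.83e-09), falling from 15835 ± 391 normalized counts in WT bleo to 3679 ± 37.5 (SD, n = 3). The integrin gene *Itgax* was lower by -1.54, the lysosomal *Cd68* by -1.23 and the lipase gene *Pla2g7* by -1.08. The 2 genes that were higher were *Csf1*, the macrophage growth factor, by 0.70 and *Cst7*, a cathepsin inhibitor, by 0.82 (adjusted p = 0.0156). All 4 MiT/TFE genes, which drive lysosomal genes, were lower, from *Tfec* at -0.81 through *Mitf* and *Tfeb* at -0.50 to *Tfe3* at -0.30 (adjusted p = 0.0247).

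Of 10 osteopontin receptor genes, 3 were higher and 4 lower in the labelled *Pear1*-/- bleo libraries, with a median of 0.032. The integrin genes *Itga9* and *Itgb5* were lower by -1.31 and -1.23 and *Itgav* by -0.65, whereas *Itga5* and *Itgb1*, whose products pair as a fibronectin receptor, were higher by 0.86 and 0.71. *Cd44* stood at -0.16 (adjusted p = 0.0749). Among genes of Apoe receptors and cholesterol efflux, the exporters *Abcg1* and *Abca1* were lower by -1.07 (adjusted p = 6.58e-08) and -0.74 (adjusted p = 3.54e-07). *Lrp1*, a receptor of Apoe on many cells, differed by -0.01 (SE 0.072, adjusted p = 0.897).

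**Figure D3:**
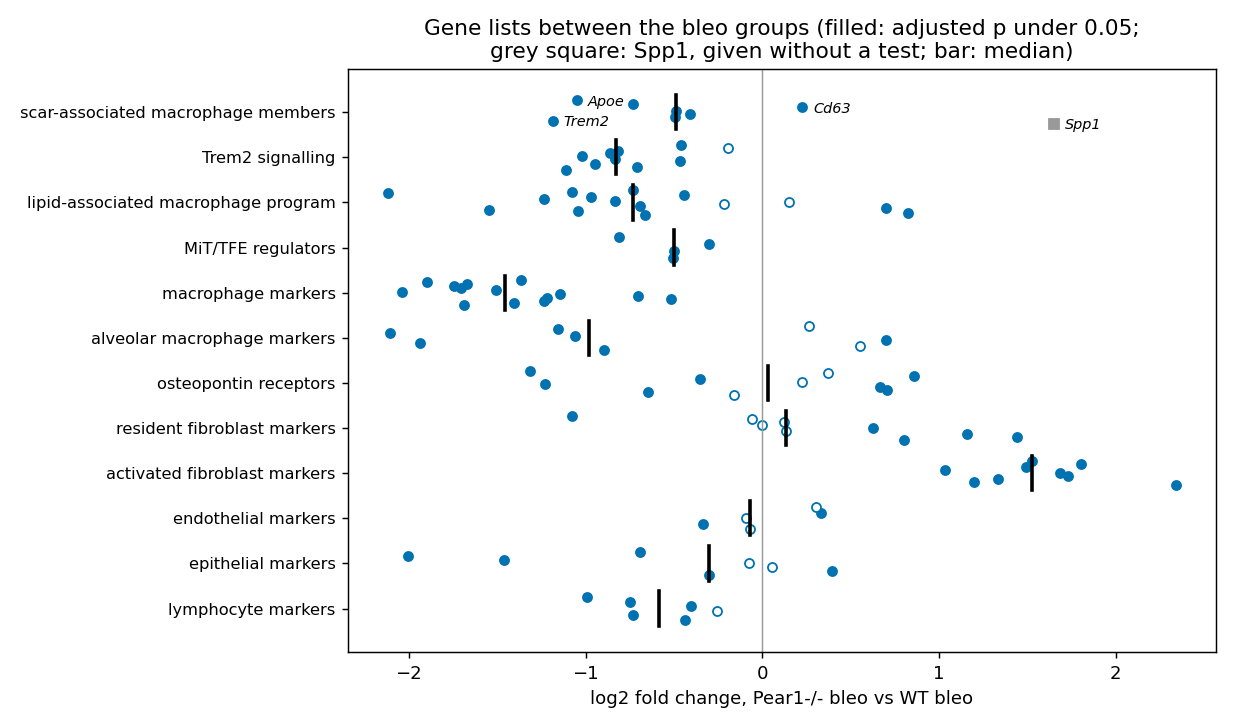
Log2 fold change between the labelled *Pear1*-/- bleo libraries and WT bleo (horizontal axis) for each gene of the lists, one row of points per list, with the list's median as a line; filled points passed the test, and *Spp1*, a grey square, is given without one. The macrophage markers lie wholly below 0 with a median of -1.455, and the activated fibroblast markers wholly above it with a median of 1.525.

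Markers of macrophages and of activated fibroblasts moved in opposite directions between the bleo groups. All 14 macrophage markers were lower in the labelled *Pear1*-/- bleo libraries, 12 of them more than 2-fold, with *Cx3cr1* at -2.04, the complement gene *C1qc* at -1.90, *Adgre1* at -1.69 and the receptor gene *Csf1r* at -1.40. All 9 activated fibroblast markers were higher there, each more than 2-fold, led by *Cthrc1* at 2.34 with *Col1a1* at 1.73. Their summed normalized counts lay between 65529 and 66004 in WT bleo and between 192451 and 199372 in the labelled *Pear1*-/- bleo libraries. The part of either set of cells in the members' changes was not tested.

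Markers of some other cells also differed between the bleo groups. Of 8 alveolar macrophage markers, 5 were lower and 1, *Chil3*, higher in the labelled *Pear1*-/- bleo libraries than in WT bleo, *Ear1* being lower by -2.11 (adjusted p = 7.03e-05). Summed without *Chil3*, the other 7 held between 1904 and 1994 normalized counts in WT bleo and between 864 and 901 in the labelled *Pear1*-/- bleo libraries, while *Chil3* alone held between 2988 and 3245 and between 5083 and 5201. Epithelial markers summed to between 14259.8 and 14474 normalized counts in WT bleo and to between 6384 and 6498 in the labelled *Pear1*-/- bleo libraries. Of these 7 markers 4 were lower, from *Sftpc* at -2.00 (adjusted p = 1.34e-10) and *Sftpb* at -1.46 (adjusted p = 1.36e-08) to *Epcam* at -0.30 (adjusted p = 0.035), and *Cdh1* was higher by 0.40 (adjusted p = 0.00801). Of 6 lymphocyte markers 5 were lower, and of 5 endothelial markers 1 was lower and 1 higher, with *Pecam1* at -0.07 (adjusted p = 0.493). Of 5 neutrophil markers 1 was higher, and of 9 resident fibroblast markers 4 were higher and 1 lower. Over all genes tested 23.9% were lower and 22.1% higher, and the endothelial and neutrophil counts do not stand out from these shares.

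Set against the macrophage markers of the same library, the order of the groups changed for several members. Per 1000 normalized counts of the 14 summed markers, *Spp1* stood at 164 ± 2.62 in WT bleo and at 1360 ± 29.5 in the labelled *Pear1*-/- bleo libraries (SD, n = 3), and at 47.9 ± 7.97 and 40.7 ± 4.46 in the vehicle groups. *Trem2* stood at 7.97 ± 0.174 and 9.24 ± 0.463 in the bleo groups (SD, n = 3), so that its labelled *Pear1*-/- bleo libraries, lower in level, were higher on this scale. The same held for *Apoe*, at 458 ± 4.81 in WT bleo and 585 ± 8.18 in the labelled *Pear1*-/- bleo libraries (SD, n = 3). Between the bleo groups the log2 fold changes of the 14 markers ranged from -2.04 to -0.519. *Trem2* at -1.18, *Apoe* at -1.05 and *Lgals3* at -0.729 lay within that range, so their order on this scale depends on the markers summed.

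The other 5 genes were also higher per macrophage marker count in the labelled *Pear1*-/- bleo libraries. The bleo groups did not overlap for any of the 8, but the same held for 83.6% of all genes tested, since the summed markers were lower there, and nothing particular to the 8 can be read from it. *Gpnmb* went from 12.9 ± 0.579 in WT bleo to 24.2 ± 0.472, *Fabp5* from 5.32 ± 0.284 to 10.6 ± 0.104 and *Lgals3* from 53.4 ± 1.38 to 84.9 ± 1.67 counts per 1000 (SD, n = 3). *Cd63* went from 34.3 ± 0.606 to 106 ± 2.46 and *Cd9* from 22.8 ± 0.232 to 43.0 ± 2.2 (SD, n = 3). Unlike *Spp1* and *Trem2*, these 5 genes and *Apoe* stood lower on this scale in WT bleo than in WT vehicle, *Cd9* for instance at 119 ± 8.22 in WT vehicle (SD, n = 3). The mean of the summed markers rose there from 18364 to 168964 normalized counts. Any gene that rose less than the sum falls on this scale, so nothing particular to these genes can be read from it. In the labelled *Pear1*-/- libraries *Fabp5* and *Lgals3* stood higher in bleo than in vehicle, where they were at 7.67 ± 0.914 and 77.1 ± 3.54 (SD, n = 3). For *Lgals3* the gap was narrow, from 81.1 in the highest vehicle library to 84.0 in the lowest bleo library. The share of all genes was not counted for either comparison with vehicle. No test was run on these ratios, and other cells also express several of the genes.

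**Figure D4:**
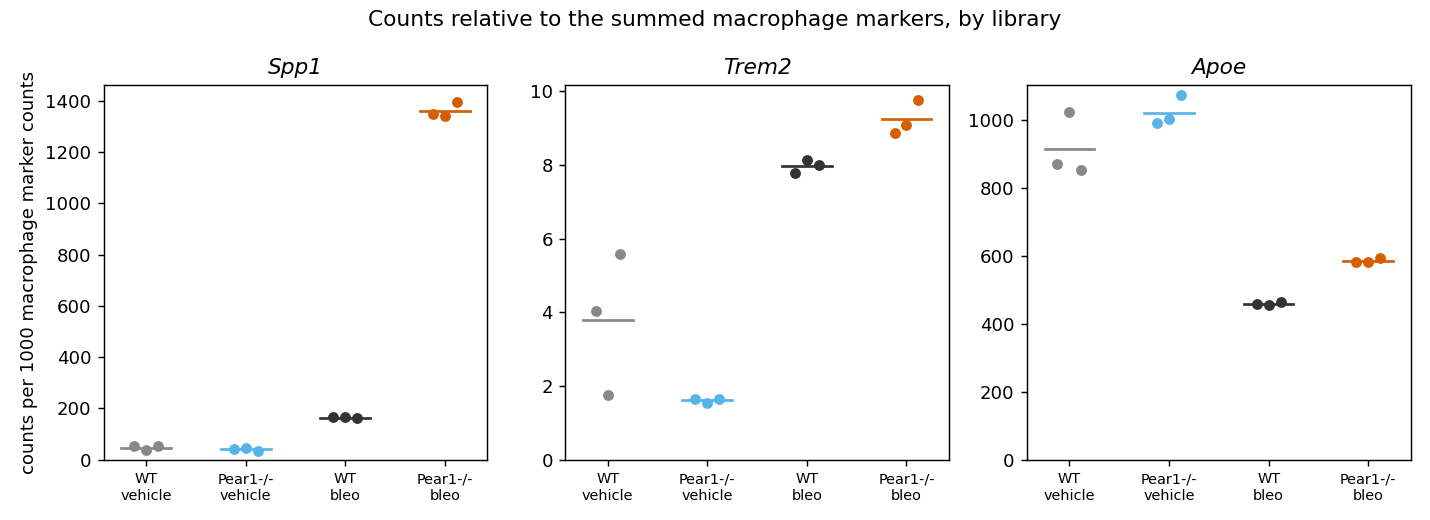
Normalized counts of *Spp1*, *Trem2* and *Apoe* per 1000 normalized counts of the 14 summed macrophage markers (vertical axes from 0) in each library, by group; points are libraries and lines are group means. *Spp1* stands at 1360 in the labelled *Pear1*-/- bleo libraries and at 164 in WT bleo, whereas *Trem2* and *Apoe* differ far less between these groups.

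The genes whose pattern over the libraries was most like that of a member were named by Pearson's r of log2 CPM (the log2 share of a library's counts) over all 12 libraries, among genes with a mean of at least 3 on that scale. The libraries fall into 4 groups, so that r mostly follows the group means, and it is given as a description. Nearest to *Spp1* were *Slc7a2* (r = 0.999), *Rab31* (r = 0.998) and *Sept9* (r = 0.998). Nearest to *Trem2* were *Ubash3b* (r = 0.997), *Furin* (r = 0.996) and *Ccl22* (r = 0.996). *Apoe* was nearest to *Fcer1g*, *Ftl1* and *Irf5*, *Lgals3* to *Lgmn*, *Spint1* and *Ctss*, and *Fabp5* to *Msr1*, *Pomp* and *Nmt1*. *Gpnmb* was nearest to *Pdlim4*, *Atp13a2* and *Fermt3*, *Cd9* to *Pbrm1*, *Celf2* and *Ivns1abp*, and *Cd63* to *Ppp1ca*, *Eif5a* and *Tsfm*.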

How the data were processed

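RNA-seq counts of 12 libraries of sorted Pdgfra+ mouse lung cells were used. The authors deposited raw counts per gene, made from reads aligned to GRCm38 with HISAT2 after full-length cDNA amplification; the counting program and its use of strand are not given in the sources used here. The authors also deposited normalized counts, a signal equal to each raw count divided by a size factor of the library, which are printed as the levels here.

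Raw counts were tested in R 4.3.3 with edgeR 4.0.16 (quasi-likelihood test, TMM normalization, filterByExpr by group, one mean per group over all 12 libraries, two-sided, Benjamini-Hochberg adjustment over the 17418 genes tested). A gene rose or fell at an adjusted p under 0.05, and a fold above 2 was counted separately. The difference of rises was the interaction contrast. Alternatives were DESeq2 1.42.0 size factors and Wald test, no filter on low counts, limma 3.58.1 on log2(normalized count + 1), only the groups compared, the replicate number as a block, and each library left out. The steps were tested on simulated data. The genes, lists and naming rule were chosen with earlier results of these data known. All members and, from each list, up to 4 genes with the largest change between the bleo groups and up to 3 with the largest difference of rises were eligible to be named, with relatives of a member and, as checks of cell type and label, *Pear1*, *Pdgfra*, *Ptprc*, *Adgre1*, *Csf1r*, *Col1a1*, *Epcam* and *Pecam1*. *Cst7*, *Adam10*, *Itgav*, *Cd44*, *Lrp1*, *Csf1* and *Chil3*, and the gene models that overlap a member, were named in addition, after their values were seen. *Spp1*, planned to be among the genes counted between the bleo groups, was left out of that count because it had been selected on its rise. A gene of the lists is not reported here. Positions are those of GENCODE M21, and promoter windows those of RefSeq. The symbol *Sept9* was taken from the gene identifier, since the table shows a date in its place. Depth limits precision through counting error, and a gene at or under 3 counts was taken as not detected.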

Additional observations from a re-analysis of the deposited data

Results flagged for a closer look

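For 5 genes the bleomycin effect differed between the labelled *Pear1*-/- libraries and WT in the interaction test of edgeR, each smaller in the former. The difference of log2 fold changes was -1.29 for *Apoe*, -0.836 for *Gpnmb*, -0.712 for *Cd9*, -0.662 for *Lgals3* and -0.358 for *Fabp5*. The call of *Fabp5* was lost in 14 of 17 other settings. In *Cd9* the rise itself passed the test in WT only. The summed macrophage markers moved with these differences, being lower in the labelled *Pear1*-/- bleo libraries than in WT bleo, and their part was not tested.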

How the results depend on the processing

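Leaving out each library in turn gave 7 higher genes in WT and 6 in the labelled *Pear1*-/- libraries over vehicle, and between the bleo groups 6 lower and between 0 and 1 higher of the 7 genes other than *Spp1*. The higher level of *Cd63* lost its call without 9 of the 12 libraries in turn, and 0 were higher without the filter on low counts (*Cd63* adjusted p = 0.0645) or with limma (adjusted p = 0.0533). Genes with a smaller rise in the labelled *Pear1*-/- libraries numbered between 4 and 6. Between the vehicle groups leaving out a library gave between 0 and 4 higher and between 0 and 2 lower genes, the filter's absence gave 4 higher, and limma and the fit of only the 2 vehicle groups gave 0 lower.

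Signs changed only for differences that did not pass the main test. Without the filter, the vehicle difference of *Fabp5* was 0.0425 and that of *Lgals3* 0.0334, and the difference of rises of *Cd63* was -0.0455. Leaving out libraries, these ranged from -0.0808 to 0.111, from -0.0929 to 0.0226 and from -0.163 to 0.0946, the *Cd63* difference passing the test at -0.163 (adjusted p = 0.0462) without WT vehicle replicate 2. The difference of rises of *Trem2* ranged from -0.467 to 0.159, the latter without WT vehicle replicate 2. *Spp1* in WT was 5.14 without the filter, and its difference of rises 1.67 without labelled *Pear1*-/- vehicle replicate 3. The causes were not tested.

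The replicate numbers did not pair the libraries, with correlations of deviations between -0.155 and 0.103. With them as a block, 4 genes had a smaller rise in the labelled *Pear1*-/- libraries, *Fabp5* being lost at -0.358 (adjusted p = 0.0678), and no other call of a member changed.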

Other observations

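Relatives of the 8 genes showed their own patterns between the labelled *Pear1*-/- bleo libraries and WT bleo. Of 12 tetraspanin genes, a list that also holds the members *Cd63* (higher) and *Cd9* (lower), 6 were higher and 4 lower. *Tspan4* stood at 0.88 and *Tspan3* at 0.80, and the leukocyte tetraspanins *Cd53* and *Cd37* at -0.83 and -0.79. The galectin gene *Lgals1* was higher by 1.02 (adjusted p = 6.7e-08). It went from 3524 ± 56.2 to 7204 ± 199 normalized counts (SD, n = 3) and so in the direction opposite to *Lgals3*. *Trem1*, a receptor of neutrophils and monocytes, was higher by 0.77 (adjusted p = 0.0465) and *Treml4* lower by -0.80 (adjusted p = 0.00506). Among fatty acid-binding proteins *Fabp3* was higher by 0.93 (adjusted p = 0.0464), and *Fabp4* stood at -0.35 and did not pass the test.

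The relatives of *Spp1* in the SIBLING family of mineralized tissue proteins were scarcely counted. *Dmp1* had between 2 and 4 counts per library in WT bleo and between 31 and 47 in the labelled *Pear1*-/- bleo libraries, and *Dspp* between 3 and 8 and between 22 and 26. *Ibsp* had between 37 and 47 and between 34 and 51 counts, and *Mepe* was not tested.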
